A study of Strongylocentrotus purpuratus with 10 samples.

Results

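The homeobox genes hox1 (named Hox7 in the authors' deposited table), HMX (Hmx) and Msx are regulators of the aboral ectoderm, the epithelium on the side of the embryo away from the future mouth. They are 3 genes of the 3542 in the authors' deposited table of differential expression and were taken by gene ID or name, not by their values. Each of the names Hox7, Hmx and Msx stands on 1 row there; the row of Hox7 has the gene ID hox1 and is described as homeobox hox 1, and its identity rests on the name column. The samples are whole blastulae of the purple sea urchin Strongylocentrotus purpuratus, 24 h after fertilisation. For RNA, 3 libraries came from embryos injected as zygotes with a morpholino that blocks translation of brachyury mRNA (2 to 4 pl at 200 µM), and 3 from embryos labelled as wild type controls. For ChIP, 2 brachyury antibody libraries each had their own input library, from embryos raised at 15 °C and fixed with 1% formaldehyde for 12 min; they are called libraries 1 and 2 after the numbers in their titles. The authors' combined set holds 490 peaks, of which 488 have the coordinates of a library 2 peak and 2 those of a library 1 peak. Of the 490, 170 overlap a peak of library 1. Neither the strain nor any injection of the controls is stated in the labels. No read totals were used here, which leaves the depth unknown for every library.

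The morpholino is the reagent on which every expression value below rests, and is shown as the labels give it. Capitals mark the 2 places where it can pair with an AUG, and no annotation used here says which of them is the start codon.

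brachyury morpholino: cgctCATtgcaggCATagtggcg

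As background, the oral-aboral axis of the sea urchin embryo is set by Nodal on the oral side. Nodal turns on the ligand BMP2/4, which acts at a distance, and BMP receptors on the aboral side phosphorylate Smad1/5/8. The T-box factor Tbx2/3 and homeobox factors including Hox7, Msx, Hmx, Dlx and IrxA are then expressed in the aboral ectoderm. Hox7 is a Hox gene, Hmx an H6-family factor known in vertebrates from the inner ear and sensory neurons, and Msx a factor whose vertebrate relatives respond to BMP. Brachyury, also a T-box factor, is known from the vegetal side of the embryo and from the oral ectoderm. In whole embryos, fewer cells of a territory and less RNA per cell cannot be told apart.

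Hox7, Hmx and Msx all had negative log2 fold changes between morphants and controls. Which group is on top of the ratio is not stated, so signs are given as positive and negative: a negative value is a lower level in morphants only if the ratio is morphant over control. The authors' deposited table has -2.16 for hox1 (adjusted p 2.87e-13). For HMX the authors' deposited table has -1.89 (adjusted p 5.06e-13). For Msx the authors' deposited table has -1.69 (adjusted p 1.85e-12). These log2 values correspond to differences of 4.46-fold, 3.71-fold and 3.23-fold between the groups. The targeted gene itself, brachyury (LOC576774), is at 1.18 in the authors' deposited table (adjusted p 8.71e-05), which checks nothing, since a block of translation need not lower the mRNA. Values per library and errors were not used here, so whether the groups overlap and whether the members differ from each other were not tested. Negative values are common: 51.6% of the genes in the table are negative, and 32.6% are at -1 or below.

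The 3 genes lay close together by size and by adjusted p. Counted from the most negative value, hox1 was number 280, HMX number 380 and Msx number 487 of the 3542 genes of the authors' deposited table. By adjusted p they were numbers 79, 86 and 103, so 2.91% of the table had an adjusted p no larger than that of Msx. The median over all genes of the authors' deposited table was -0.51, and the median of its negative genes was -1.19. The members were therefore placed further forward by adjusted p than by fold change.

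**Figure D1:**
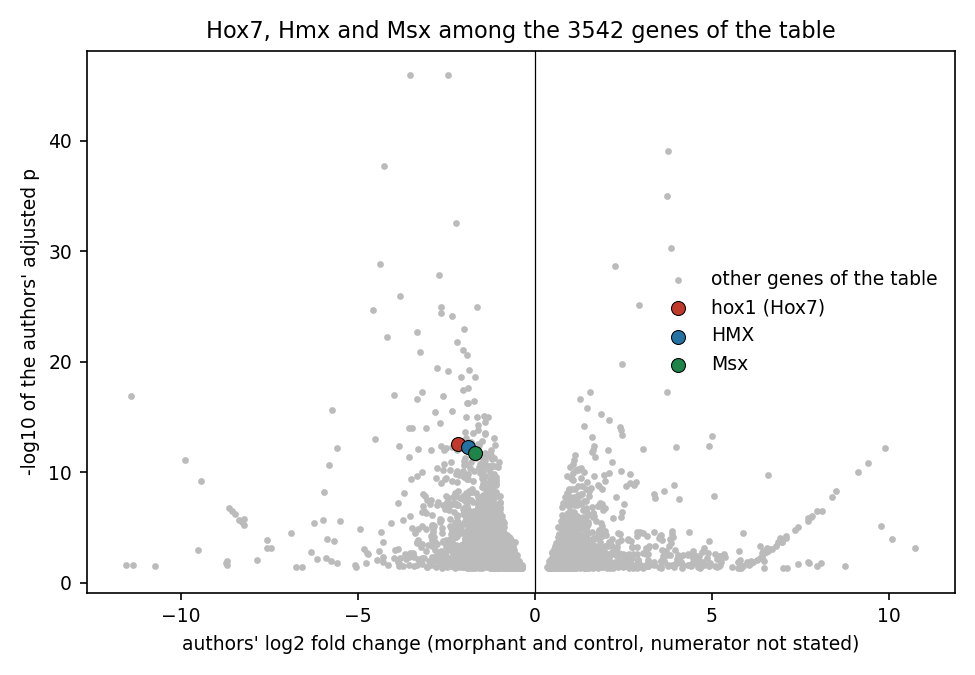
Log2 fold change (horizontal) against -log10 of the adjusted p (vertical) for the 3542 genes of the authors' deposited table, 1 point per gene. hox1, HMX and Msx lie side by side on the negative side, between -2.16 and -1.69, with adjusted p between 2.87e-13 and 1.85e-12; the numerator is not stated.

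Among homeobox genes, which encode DNA-binding factors with a homeodomain, the members had low adjusted p but not the most negative values. The table holds 32 homeobox genes by its class, domain or description columns, a set chosen after the values were seen, of which 26 were negative and 6 positive. The row named Hox5 (LOC575073, 3.92) was kept out of the set because its description names another protein. In that set hox1, HMX and Msx were numbers 2, 3 and 4 by adjusted p, after Nk7 (LOC580883), which has -3.33 in the authors' deposited table and is described there as a GBX-2 protein, against its name. By fold change they were numbers 6, 10 and 11. The class column of the authors' deposited table marks 12 of the 32 as homeobox factors, hox1 and Msx among them, and leaves HMX blank.

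**Figure D2:**
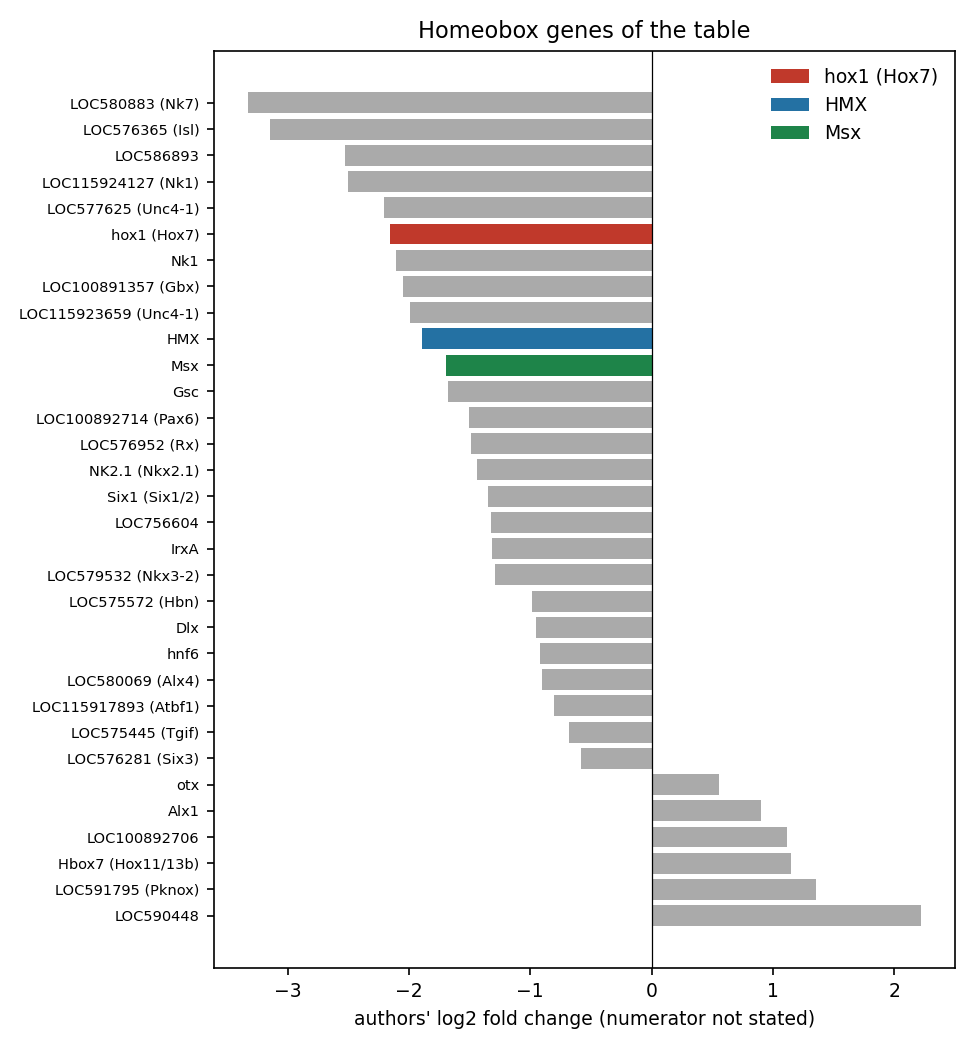
Log2 fold change of the 32 homeobox genes of the authors' deposited table, 1 bar per gene from 0, with the gene ID and, in brackets, its name. hox1 (-2.16), HMX (-1.89) and Msx (-1.69) are coloured, and 26 of the 32 bars are negative.

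Other regulators of the aboral ectoderm were mostly on the same side. Of 21 list members, 14 (against 12.0% of all protein-coding genes) were in the authors' deposited table, on 16 genes, of which 13 were negative and 3 positive, with a median log2 fold change of -1.14. Here and for the lists below, members are names and the 12.0% is of single genes. The lists were chosen with earlier results known, so no enrichment is read from these counts. Without hox1, HMX and Msx, 10 genes were negative and 3 positive, with a median of -0.92. Among these 13 none had an adjusted p below that of Msx. Tbx2/3, the T-box factor that acts early in the aboral domain, had -0.85 in the authors' deposited table. IrxA had -1.32 and Dlx -0.95, both homeobox factors of the aboral ectoderm, in the authors' deposited table. Values more negative than that of hox1 were found for 2 of the 13, a copy of Nk1 (LOC115924127, -2.51) and a copy of Unc4.1 (LOC577625, -2.21) in the authors' deposited table. The other copies of these names had -2.11 (Nk1) and -1.99 (LOC115923659) in the authors' deposited table. They are called copies by their shared names, and their sequences were not compared. Copies that are near-identical may divide reads, so the values of these genes are uncertain. In the authors' deposited table the ONECUT factor Hnf6 had -0.92, and Id (LOC115918565), an inhibitor of helix-loop-helix factors, -0.61. The 3 positive genes of the authors' deposited table were Hox11/13b (Hbox7, 1.15), Rel (LOC575231, 0.71) and Otx (0.56). Hox11/13b is also counted among the endoderm markers below, and the Nk1 genes and Dlx among the oral and border ectoderm genes. Of the genes named here, Tbx2/3, Hnf6, Id, Rel and Otx fall outside the first 8 of any list by adjusted p and were chosen after their values were seen.

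The products of the aboral ectoderm were all negative. All 14 genes matched to the 7 list members were negative in the authors' deposited table, with a median of -1.40. The genes spec2c and LOC100888959 each carry both of the names Spec2a and Spec2c. Values ranged from -4.36 (cyiiib, a cytoskeletal actin) to -0.68 (an arylsulfatase, LOC575079, named as the end of the range). Again, 12.0% of all protein-coding genes were in the table. They encode cytoskeletal actins, Spec calcium-binding proteins and arylsulfatases, and several share a name and description, so they may be copies.

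Upstream components had mostly positive values. Of 21 members of the BMP and Nodal list, 7 were in the authors' deposited table (12.0% of all protein-coding genes were), with 5 positive, 2 negative and a median of 0.74, against -0.51 over all its genes. The ligands BMP2/4 and Nodal and the antagonists Chordin and Lefty were not matched in that table, which lists only genes past its threshold. Among receptors, the authors' deposited table has 1.14 for Alk4/5/7 (LOC593908; adjusted p 2.83e-12), the Nodal and activin type I receptor. For Alk2 (LOC590282), a type I receptor for BMP signals, the authors' deposited table has 1.06 (adjusted p 3.45e-09). In the authors' deposited table the type II receptor Acvr2 (LOC574893) had 0.44. Outside the list, and named after their values were seen, the BMP type II receptor Bmpr2 (LOC586095) had 0.54 and the TGF-beta type II receptor TgfbrtII (LOC580712) -0.70 in the authors' deposited table. A row named Bmp5-8 (LOC105444767) but described as an X-ray repair protein, with 1.00 in the authors' deposited table, is not counted. The authors' deposited table has 0.74 for the transducer Smad1/5/8 (LOC582943) and 0.80 for BMP1, a protease related to Tolloid. The 2 negative genes were the inhibitory Smad6/7 (LOC593676, -0.71) and the co-receptor Glypican5 (LOC115917883, -0.46) in the authors' deposited table. Smad6/7 also stands in the list of aboral regulators. Whether the receptor values and those of Hox7, Hmx and Msx come from the same cells was not tested.

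**Figure D3:**
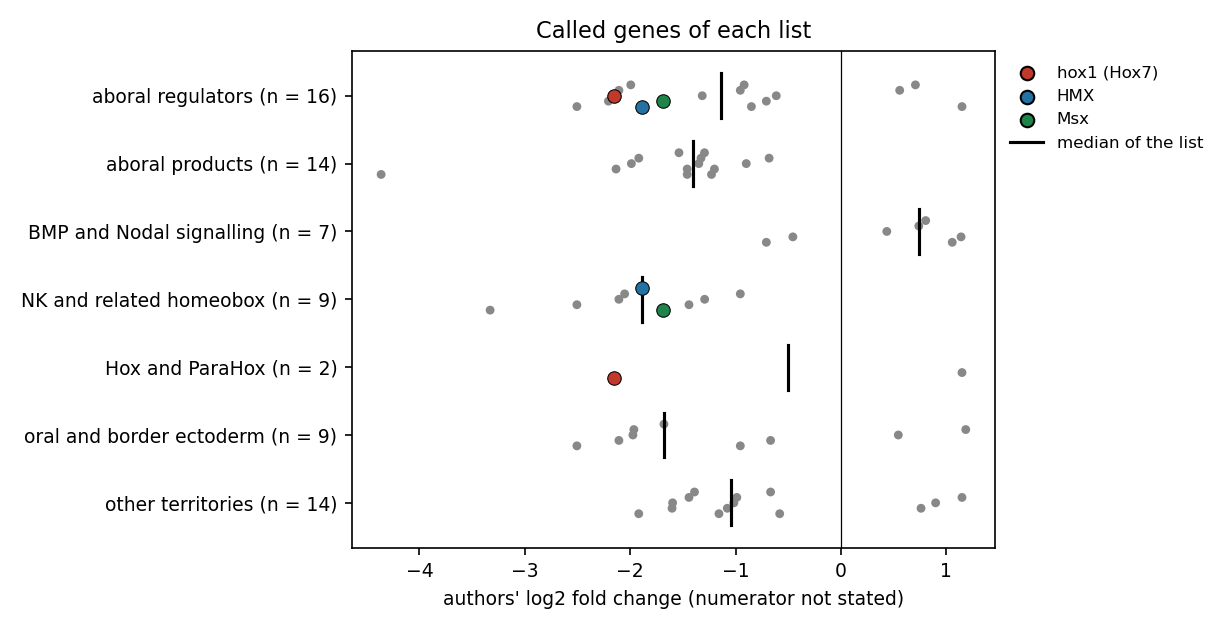
Log2 fold change in the authors' deposited table of the called genes of 7 lists, 1 point per gene, with the median of each list as a black line. hox1, HMX and Msx are coloured; the aboral lists have medians of -1.14 and -1.40 and the BMP and Nodal list 0.74.

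Lists of other territories also leaned to the negative side. Of 12 oral and border ectoderm members, 8 were in the authors' deposited table (12.0% of all protein-coding genes were). On these names stood 9 genes, which also include Nk1 and Dlx, and 7 were negative, with a median of -1.68. Brachyury itself was 1 of the 2 positive genes. Over all genes of that table, 51.6% were negative. FoxG and Gsc, forkhead and homeobox factors of the oral ectoderm, had -1.96 and -1.68 in the authors' deposited table. Of 20 skeletogenic, endoderm, apical and pigment markers, 12 were in the authors' deposited table, on 14 genes. Of these, 11 were negative, with a median of -1.05. Negative values were thus also listed outside the aboral lists, and no test of a difference between lists was made. Of 56 other listed genes, those with the nearest log2 fold change to hox1 were CyIIIa (-2.13), the Unc4.1 copy LOC577625 and Nk1 in the authors' deposited table. Nearest to HMX were spec2d (-1.92), Fmo2 (LOC589643, -1.92) and FoxG in the authors' deposited table. Nearest to Msx were Gsc, P16 (-1.60) and Pks1 (LOC588806, -1.60) in the authors' deposited table. Likeness here is only the difference between 2 fold changes from 1 comparison of 6 libraries.

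Of the 3 genes, Msx alone had brachyury peaks within 10 kb, and these came from library 2. Peak score, signal, fold and false discovery rate are the authors', and no source used here gives the scaling of the signal. Genes were placed on scaffolds by the order of rows in the RefSeq gene table (Spur_5.0), which is an inference. Library 2 placed 2 peaks within 10 kb of Msx, and the combined set 1. The peak NW_022145600.1:17823206-17823489 lay 2701 bp beyond the end of the gene span (17807255 to 17820505). It had a score of 3.05, an antibody signal of 3.53 against an input signal of 0.49, and a fold of 7.26. In score it was number 170 of the 7459 peaks of library 2, with 2.29% of peaks at least as high, and number 169 of the 488 library 2 peaks in the combined set. Its false discovery rate was 16.18%. In library 2 this rate did not fall steadily with score: it was under 10% for all 926 peaks with a score of 1 to under 1.5, but for 1 of the 171 peaks with a score of at least 3.05. The second peak, NW_022145600.1:17814709-17814992, lay inside the gene span, had a score of 0.83, an antibody signal of 1.28 against 0.45 in the input, and is not in the combined set. The gene table gives no exons or strand, so introns, exons and promoters are not analysed here. Just outside the limit, 11.03 kb below the start, library 2 had another peak, with a score of 0.98 and a fold of 5.81.

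A peak within 10 kb was uncommon in general for the combined set. Among 24774 protein-coding genes, 1.61% had a combined peak within 10 kb, 21.5% a peak of library 2 and 5.82% a peak of library 1. Among genes of the authors' deposited table these shares were 2.99%, 30.5% and 8.09%. With 1 of 3 members having a combined peak, 1 of 3 a library 2 peak and 0 of 3 a library 1 peak, the members are too few for a share to be read against these backgrounds. Of the 15 aboral regulator genes on the paired scaffolds, 3 had a combined peak (Msx, Tbx2/3 and Otx) and 6 a library 2 peak. Tbx2/3 had 4 combined peaks, the highest with a score of 3.41, and Otx had 1 with 3.43. The brachyury gene itself (LOC576774) had combined peaks up to a score of 9.91, a peak whose false discovery rate was 47.14%.

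Msx lies in a wide space without other protein-coding genes, and that space held many peaks. Its neighbours were 138.2 kb and 99.3 kb away, an interval of 250.8 kb, and 1.17% of 24731 genes had an interval at least as long. The median interval was 36.4 kb. Library 2 had 11 peaks in the Msx interval, or 43.9 per Mb, against 12.56 per Mb over the whole scaffold, whose mean includes long stretches without peaks. Peaks also stood close together away from Msx, as at -12.39 to -12.12 Mb from the start of HMX. Density was not computed for other windows of this length, so no excess at Msx is read. The following counts are for the Msx interval. Of the 11 peaks, 7 lay below the start of Msx, 1 inside and 3 beyond its end, with scores of 0.74 to 3.05 and folds of 2.23 to 7.26. The false discovery rate was under 10% for 6 of the 11, and the peak with the highest score was not among these 6. A second combined peak, NW_022145600.1:17740661-17740944, lay 66.3 kb below the start, with a score of 1.57, a fold of 3.48 and a rate of 8.47%. It overlapped the single library 1 peak of the interval, NW_022145600.1:17740726-17740861, which had a score of 0.53 and a rate of 35.33%. The combined peak nearer the gene thus had the higher score in library 2, and the one 66.3 kb away was listed for both antibody libraries. Within 300 kb of Msx, 5 of 23 other protein-coding genes were in the authors' deposited table, against 12.0% of all protein-coding genes, and they did not share a sign. In the authors' deposited table the choline transporter gene Slc5a7 (LOC590588) had -0.71 and the N-acetylglucosamine kinase gene Nagk (LOC586039) 1.99, at 147.8 kb below and 149.0 kb beyond Msx. An unnamed gene at 230.6 kb, LOC105442607, had 8.51 in the authors' deposited table.

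The hox1 gene had no peak in its interval. Its span is NW_022145612.1:37898802-37911878, and the interval between its neighbours is 69.9 kb long. The nearest peak, NW_022145612.1:37845797-37846080, lay 52.7 kb below the start, inside the span of the neighbouring gene LOC574804. That peak is in library 2 and in the combined set, with a score of 1.71, an antibody signal of 2.22 against 0.52 in the input, and a rate of 8.74%. The nearest library 1 peak lay 219.5 kb away. Of all protein-coding genes, 55.6% were at least as far from a library 2 peak. Within 300 kb of hox1, 2 of 13 other protein-coding genes were in the authors' deposited table, against 12.0% of all protein-coding genes. Both were positive, and they are too few for a share or a sign to be read. Hox11/13b (Hbox7), a posterior Hox gene, lay 235.2 kb beyond hox1; its value in the authors' deposited table is the 1.15 given above. The other, LOC575073, is named Hox5 but described as an acetylcholinesterase, so its 3.92 in the authors' deposited table is not given to a Hox gene here. That description carries the ID of another gene (LOC754759), so whether the name is right was not tested.

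The HMX gene had no peak within 923.0 kb in any of the lists. Its span is NW_022145600.1:29380372-29390099, between neighbours that leave an interval of 99.7 kb. It lay in a stretch of 2.24 Mb without a library 2 peak or a library 1 peak, number 41 in length of the 7404 gaps between successive library 2 peaks on the paired scaffolds. The median gap was 29.6 kb. On the same scaffold 3 gaps were longer, and 7.65% of protein-coding genes were at least as far from a library 2 peak as HMX. Genes of the stretch were in the authors' deposited table about as often as genes elsewhere, with 8 of 66 (12.1%) against 12.0% of all protein-coding genes. Nearest to HMX among them was Nk1, a homeobox factor gene 61.95 kb beyond its end.

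**Figure D4:**
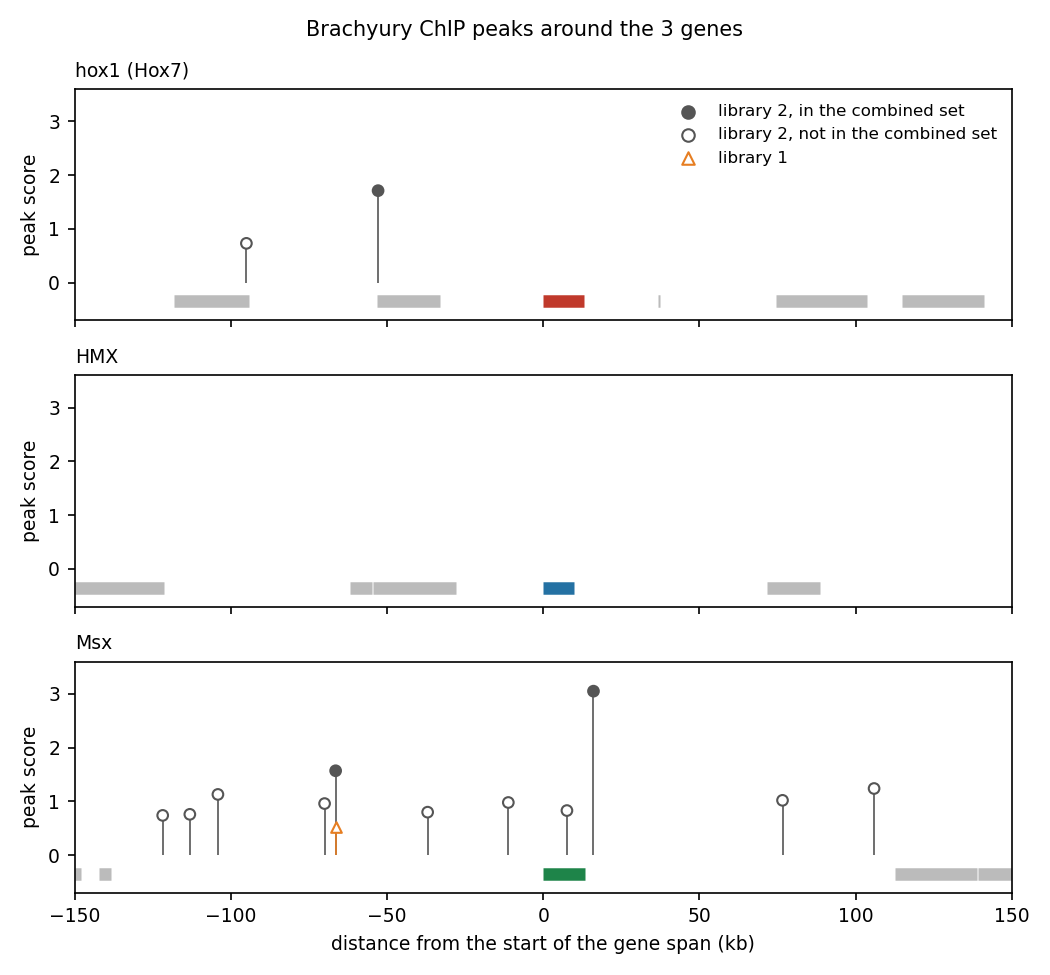
Score of each brachyury ChIP peak (vertical) against distance in kb from the start of the gene span (horizontal) for hox1, HMX and Msx, with protein-coding genes as bars below 0. Filled circles are library 2 peaks in the combined set, open circles other library 2 peaks and the triangle the library 1 peak; Msx has 11 library 2 peaks between its neighbours, and HMX none.

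HMX and Msx lie on the same scaffold with other NK-type homeobox genes of the table. NK genes are a homeobox class known in many animals for lying in linked groups. Of 23 NK list members, 8 were in the authors' deposited table (12.0% of all protein-coding genes were), on 9 genes, all negative. Over all genes of that table, 51.6% were negative. The 9 genes include HMX and Msx themselves, and the list was chosen with earlier results known. Of the 9 genes 6, with 5 names because 2 carry the name Nk1, lay on NW_022145600.1, from Msx to Nkx3-2 over 12.8 Mb. That scaffold holds 4.53% of the genes of the authors' deposited table on the paired scaffolds. Nk7 is counted although its description names GBX-2, another homeobox factor; without it 8 of 8 genes were negative. Msx starts 11.57 Mb below HMX, Nk7 (LOC580883) 4.82 Mb below and the Nk1 copy LOC115924127 2.18 Mb below. Nk1 starts 0.072 Mb and Nkx3-2 (LOC579532, described as Hmx-like) 1.25 Mb beyond the start of HMX. Nkx3-2 had -1.29 in the authors' deposited table. The scaffold as a whole did not lean this way: of its 135 genes listed by the authors' deposited table, 64 were negative (47.4%), and the median was 0.51. Peaks of library 2 within 10 kb numbered 5 at Nk7, 3 at Nkx3-2 and 2 at Msx, against 0 at HMX and 0 at both Nk1 copies. Copies that are near-identical may also divide ChIP reads, so a missing peak at the Nk1 copies is uncertain. The highest scores were 1.06 at Nk7, 0.98 at Nkx3-2 and 3.05 at Msx. Only Msx of the 9 genes had a combined peak within 10 kb. On other scaffolds, Dlx had 4 library 2 peaks, Nk2.1 had 1 and Gbx had 1. The same sign was therefore listed for NK genes with peaks and for those without; whether peaks and fold change are related was not tested.

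**Figure D5:**
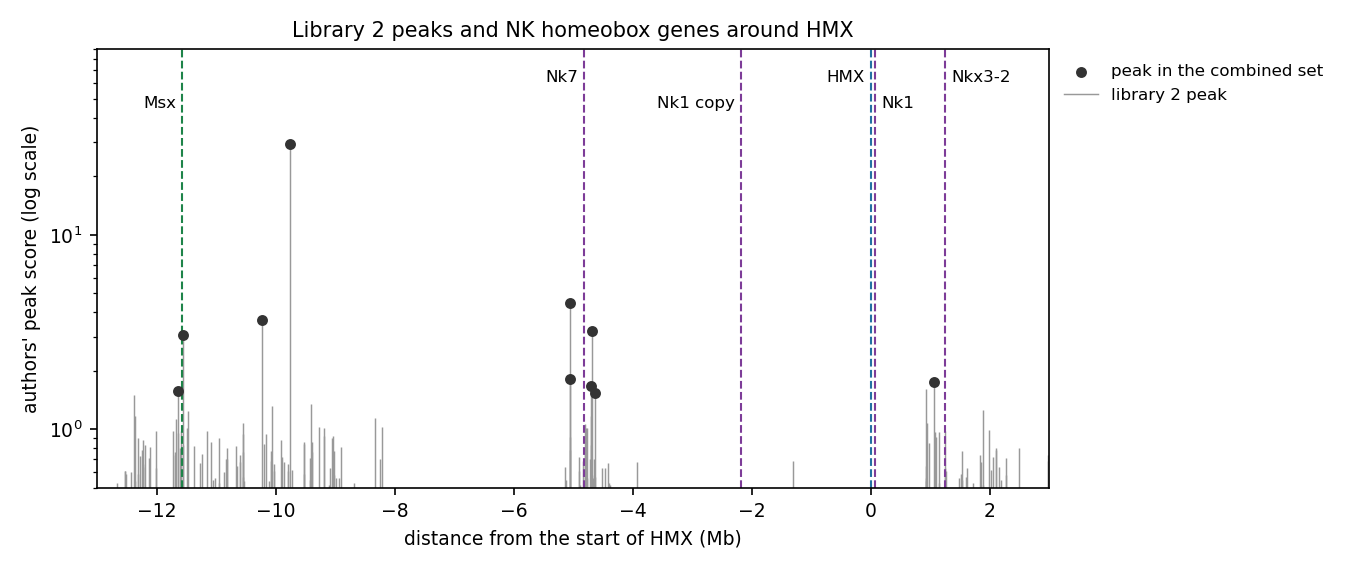
Score of each library 2 peak (vertical, log scale) against distance in Mb from the start of HMX (horizontal), with combined peaks as points and the 6 NK-type genes as dashed lines. Peaks run over wide stretches that hold Msx, Nk7 and Nkx3-2 and also extend well away from them. HMX and Nk1 lie in a stretch of 2.24 Mb without a peak.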

How the data were processed

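RNA and ChIP libraries of whole embryos were grouped by their titles. Tools named by the submitters' processing notes, without their roles, are BWA 0.7.17, DESeq2 1.28.1, Salmon 0.11.3 and Trimmomatic 0.38; no source used here names the peak caller. The authors deposited a log2 fold change, a p-value and an adjusted p-value per gene, and every listed gene has an adjusted p under 0.05. Per the file headers, each peak has a deposited score, antibody and input signal, fold enrichment, distribution score (a fraction from 0 to 1, not used further) and false discovery rate in percent. No gene was tested again. Within a library's list the peaks have no replicate check, each such list being of 1 library. Between the libraries only the overlap of listed peaks was counted. Coordinates are on Spur_5.0, counted from 1.

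The RefSeq gene table names no scaffold. Blocks of rows with rising start that exceed 20 Mb, 21 in number, were matched in sequence to the 21 scaffolds with over 100 library 2 peaks. In all 21 pairs the last peak ended before the last gene end, and the scaffold number minus the block number was the same. Distances run between the nearest edges of gene span and peak.

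The genes and lists were chosen with earlier results of these data known. Names were matched without letter case, punctuation and copy mark, with a few alias names. The 2 rows described as proteins of another family than their name (Hox5 and Bmp5-8, both positive) were left out. Nk7, described as another homeobox factor, was kept. These steps followed a look at the rows. The descriptions of the 2 rows carry another gene's ID, as does that of the kept row cyiiib. Whether the names are right was not tested. The naming rule was the 3 genes, up to 8 called genes per list by adjusted p, brachyury, neighbouring genes, and the 3 listed genes nearest to each member in fold change (spec2d and CyIIIa among them). Genes named outside it, chosen after their values were seen, are Tbx2/3, Hnf6, Id, Rel, Otx, LOC575079, Bmpr2, TgfbrtII and those of the closing section. Genome and protein sequences are not analysed here. Gene and peak matching was tested on simulated peaks. Software was matplotlib 3.10.9, pandas 2.3.3, numpy 2.4.6 and Python 3.11.15.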

Additional observations from a re-analysis of the deposited data

How the results depend on the processing

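All 3 members pass an adjusted p under 0.01 and a log2 fold change of 1 or more in size. This follows from the values given above and checks nothing further. Of the aboral regulators, the 13 negative genes became 8, with 1 positive, under that size limit, because fewer genes are counted, and the median of -1.14 became -1.99. At an adjusted p under 0.01, with 1 gene per list member, and without alias names (added after seeing the data), the negative count was 10, 11 and 12, the positive count 1, 3 and 3, and the median -1.89, -0.94 and -1.32. Keeping the row named Bmp5-8 gave 6 positive of 8 BMP and Nodal genes, and leaving out Nk7 gave 8 negative of 8 NK genes (both added after seeing the data). The 2 library 2 peaks near the members became 4 within 50 kb and 3 within 20 kb, 1 at a score of at least 1, 1 at a fold of at least 5 and 0 at a false discovery rate under 10%. The combined peak near Msx was also lost at that rate, leaving 0, and was kept under the other limits; the rate limit keeps 1 of the 171 library 2 peaks with a score at least as high, so it removes nearly all of the highest peaks. No library 1 peak and no shared peak was found at the members within 5, 10, 20 or 50 kb, or with midpoints within 50 bp. No paired analysis was possible because the authors' statistics come without values per library, and for the same reason leaving out replicates, other normalizations and low-count filters were not run. The depth of the libraries is unknown, so a gene without a peak may still be bound below the peak threshold. Whether reads could be placed uniquely in the stretches without peaks was not tested.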

Other observations

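The adjusted p of the authors' deposited table does not follow the p-value alone. With its 3542 genes sorted by p-value, the adjusted p stepped down 1614 times, which a single Benjamini-Hochberg adjustment would not give. For the members the order was nearly the same by either measure, with hox1 number 82 by p-value and 79 by adjusted p, HMX number 86 by both and Msx number 103 by both. The ratio of adjusted p to p-value was 177 for hox1, 170 for HMX and 142 for Msx in the authors' deposited table. No source used here says how the adjustment was made.

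The stretch without peaks around HMX holds 3 genes named after Slit, a guidance ligand of the nervous system. The names mark LOC100892939 and LOC757340 as a C-terminus and LOC115924213 as an N-terminus. Whether they are parts or copies of the same gene was not tested. LOC115924213 had -1.29, LOC100892939 -1.07 and LOC757340 -0.87 in the authors' deposited table. LOC100892939 is described there as a protease-associated domain protein, against its name. With HMX, Nk1 and LOC584559 (-1.26), 6 of the 8 called genes of the stretch were negative in the authors' deposited table. Positive were Zcchc4 (LOC115917999, 1.11) and LOC590497 (0.68). All were named after their values were seen.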
